A study of Mus musculus with 8 samples.

Results

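The genes described here encode enzymes, and 1 enzyme cofactor, that are best known from pancreatic juice. They are Clps, Pla2g1b, Pnlip, Pnliprp1 and Cel, which act on fat, the endoproteases Try10, Cela1 and Cela2a, and the carboxypeptidases Cpa1 and Cpb1. These 10 of 23361 genes were chosen by name, with their levels in these cancers and controls already known, so their difference between the groups is given as a description without a test. RNA was sequenced from 5 cancers of the gastric squamous-columnar junction (SCJ), the border between the squamous forestomach and the glandular stomach, and from the SCJ of 3 control mouse stomachs. The cancers, labelled Trp53-/-Rb1-/-, arose in mice that carried the Lgr5-eGFP-IRES-CreERT2 knock-in, loxP-flanked Trp53 and Rb1 alleles and the Ai9 tdTomato reporter, after tamoxifen. Cre was therefore expressed only in Lgr5+ cells, and tumour borders were taken from tdTomato fluorescence. The controls were wild-type mice of matching age, and the ages, the sexes and any tamoxifen given to the controls are not stated per sample. Each control came from its own stomach, but the sources do not say whether each cancer came from a separate mouse, so p-values measure the spread between these samples.

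Values are FPKM, a fragment count corrected for transcript length and for the size of the library, rounded by the authors to whole numbers, so a level of 1 or 2 carries little precision and levels can be compared between genes per length. Depth is unknown because no read counts were used, and no counting interval can be given. A value of 0 may also be a failed estimate, so such genes are described as listed at 0. Pgc, for example, was listed at 28832, 0 and 0 in controls 1 to 3, and 3 of 79 ribosomal protein genes were listed at 0 in all samples. FPKM summed to 403569 to 573858 in the cancers and to 887141 to 992550 in the controls. Rb1 lay at 4 to 6 in the cancers and 9 to 10 in the controls, and Trp53 at 12 to 30 and 16 to 19, but a value for the whole gene cannot show the loss of single exons. The samples were pieces of tissue, so fewer cells of a type and less RNA per cell cannot be told apart.

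In the pancreas, acinar cells make digestive enzymes in bulk, store them in zymogen granules and release them into the gut when cholecystokinin, secretin or acetylcholine act. Colipase, the product of Clps, anchors pancreatic lipase to bile-covered fat droplets, and the phospholipase A2 encoded by Pla2g1b cleaves membrane lipids after trypsin has removed its propeptide. The acinar programme is driven by the PTF1 complex, in which Ptf1a and Rbpjl bind an E-box beside an RBPJ box, together with Nr5a2 and the GATA factors. In the stomach, chief cells are the zymogen-secreting cells, and the pancreatic-type phospholipase A2 is known to be made in gastric mucosa as well.

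Promoters of the genes were read for these acinar motifs, and for TATAAA, around the RefSeq start sites. The RefSeq table for GRCm38.p6 held a promoter, a stretch of 300 bases that ends 50 bases past the start, for 8 of the 10 genes, and those of Clps and Try10 are not shown. Of the 8 promoters, 4 held the PTF1-type E-box (CACCTG or CAGGTG), which 20.2% of 32851 promoters of the same length hold. The RBPJ box (TTCCCA or TGGGAA) was in 5 of 8 against 25.6%, the GATA motif (AGATAA or TTATCT) in 3 of 8 against 11.2%, the NR5A2 motif (AAGGTCA or TGACCTT) in 2 of 8 against 4.72%, and TATAAA, read on the gene's strand only, in 3 of 8 against 8.32%. Any E-box (CANNTG), which includes the PTF1-type letters, was in 6 of 8 against 72.3%. A match is a string of letters and not a bound site. The promoters below belong to the most abundant gene of the set with an entry (Pla2g1b), to Cela1, whose levels overlapped between cancers and controls, and to Cel and Pnlip, classical acinar genes that were low in all samples. They are written 5′ to 3′ on the gene's strand, with matches to the 5 motif types other than the general E-box in capitals.
Pla2g1b, chr5:115465892-115466191, plus strand: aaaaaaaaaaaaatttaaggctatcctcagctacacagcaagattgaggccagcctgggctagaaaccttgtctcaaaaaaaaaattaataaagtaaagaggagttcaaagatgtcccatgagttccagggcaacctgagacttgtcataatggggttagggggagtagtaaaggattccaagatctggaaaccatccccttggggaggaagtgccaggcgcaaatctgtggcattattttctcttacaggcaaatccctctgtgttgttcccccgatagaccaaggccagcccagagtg
Cela1, chr15:100687871-100688170, minus strand: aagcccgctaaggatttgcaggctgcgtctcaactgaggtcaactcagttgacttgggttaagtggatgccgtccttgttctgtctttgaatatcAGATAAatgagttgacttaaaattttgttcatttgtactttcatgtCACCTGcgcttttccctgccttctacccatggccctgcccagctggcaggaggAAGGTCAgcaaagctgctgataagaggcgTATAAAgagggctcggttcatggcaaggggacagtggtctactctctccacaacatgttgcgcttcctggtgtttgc
Cel, chr2:28563354-28563653, minus strand: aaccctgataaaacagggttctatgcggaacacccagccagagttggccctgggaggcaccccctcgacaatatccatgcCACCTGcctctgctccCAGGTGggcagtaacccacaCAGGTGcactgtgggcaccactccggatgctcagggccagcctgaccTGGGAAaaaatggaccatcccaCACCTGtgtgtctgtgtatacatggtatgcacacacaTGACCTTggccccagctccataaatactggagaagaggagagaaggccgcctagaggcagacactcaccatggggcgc
Pnlip, chr19:58670115-58670414, plus strand: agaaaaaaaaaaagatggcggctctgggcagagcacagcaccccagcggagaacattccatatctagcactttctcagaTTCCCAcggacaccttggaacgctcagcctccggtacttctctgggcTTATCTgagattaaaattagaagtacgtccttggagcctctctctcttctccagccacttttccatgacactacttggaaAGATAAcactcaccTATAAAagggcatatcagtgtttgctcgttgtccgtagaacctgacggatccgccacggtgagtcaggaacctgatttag
The Pla2g1b promoter, from the gene with the highest level of these 4, held none of the motifs and no E-box. That stretch ends at base 115466191, before the locus of the measured gene begins at base 115466266. The bases next to that locus were therefore not read, and nothing is concluded about motifs there. The Cel promoter held 4 PTF1-type E-boxes, 1 RBPJ box and 1 NR5A2 motif, although Cel did not exceed 12 FPKM in any sample. Cela1 and Pnlip each had a TATAAA, starting 27 and 30 bases before the start. The TATAAA of Cpb1, the other of the 3, lies 35 bases past the start.

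Clps (Entrez 109791, chr17:28558214-28560714 in mm10) was the most abundant gene of the control SCJ by mean level. Its FPKM was 74893, 148172 and 117206 in controls 1 to 3 and 3, 3043, 234, 9087 and 669 in cancers 1 to 5. Every cancer lay below every control, cancers 1 and 3 were lowest and cancer 4 highest, and the lowest control was 8.24 times the highest cancer. Among all genes of a sample ordered by level, Clps ranked 2, 1 and 1 in the controls and 9936, 10, 238, 5 and 92 in the cancers. It thus stayed among the 10 most abundant genes in cancers 2 and 4. The mean log2 difference was -7.94 (SE 1.95, n = 5 and 3), or -6.24 without cancer 1. It was -7.01 after each library was rescaled to the same sum (TPM) and -6.54 after quantile normalization.

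Pla2g1b (Entrez 18778, chr5:115466266-115474717), the secreted phospholipase A2 of pancreatic juice, followed Clps closely. It stood at 33011, 64061 and 63420 FPKM in controls 1 to 3, next by mean level after Clps, Tff1 and Gkn2, and at 2, 1483, 70, 3425 and 404 in cancers 1 to 5. The cancers fell in the same order as for Clps, with cancer 1 lowest and cancer 4 highest, and none reached the controls. The lowest control was 9.64 times the highest cancer, and the mean log2 difference was -7.91 (SE 1.83), or -6.37 without cancer 1. With TPM the difference was -7.00 and with quantile normalization -6.67. For each 1000 FPKM of Clps there were 441, 432 and 541 of Pla2g1b in the controls and 667, 487, 299, 377 and 604 in the cancers. The ranges of this ratio overlapped between the groups, although in cancer 1 it rests on an FPKM of 3 and 2.

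**Figure D1:**
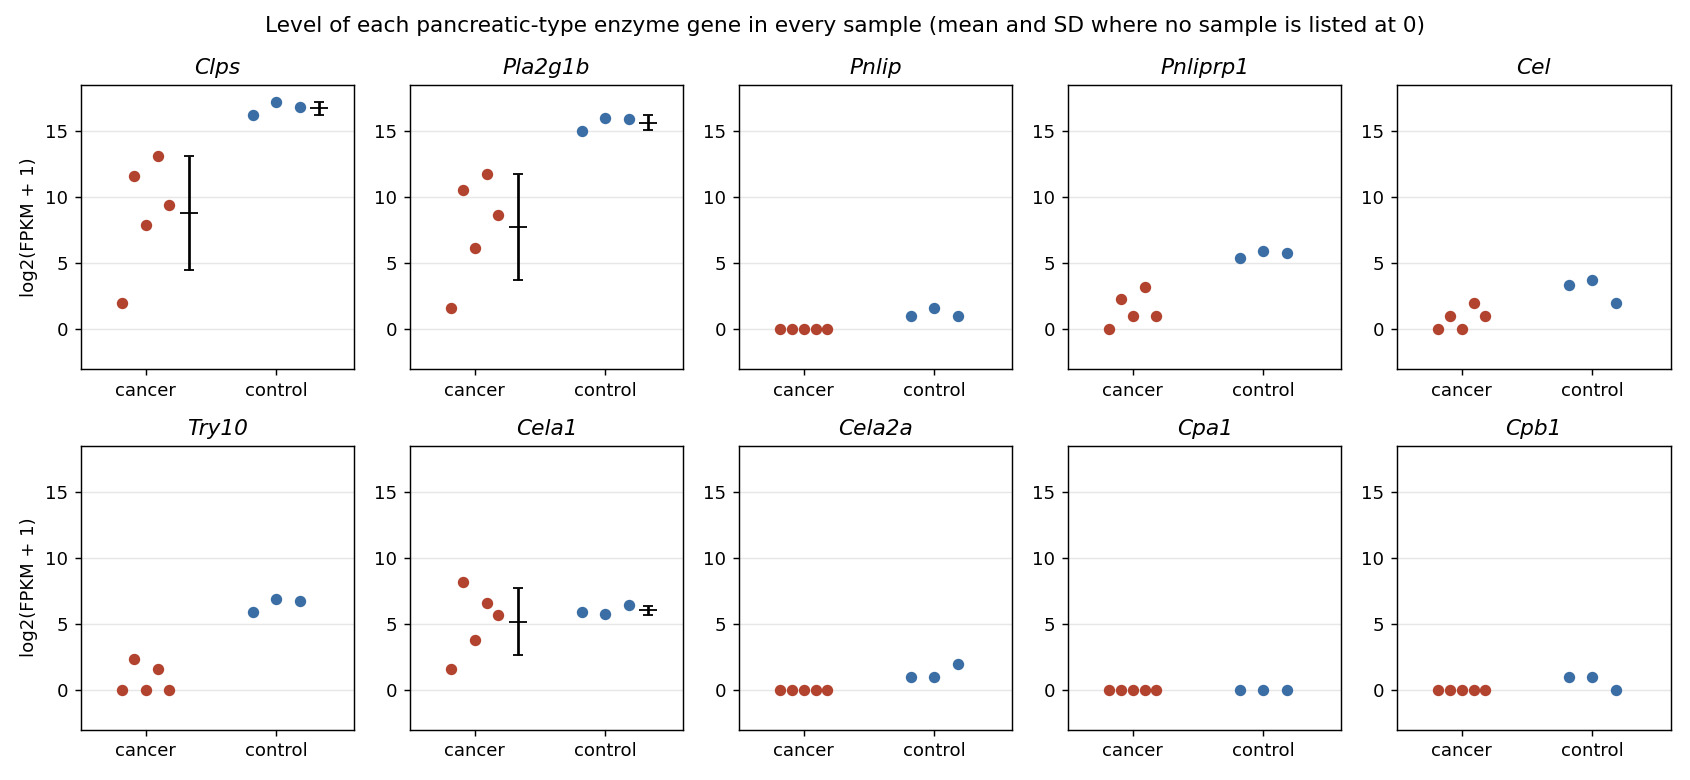
Level of each of the 10 genes in every sample, as log2(FPKM + 1), with cancers in red and controls in blue; bars give the mean and SD for the 3 genes not listed at 0 in any sample. Clps and Pla2g1b stand far above the other 8 genes in the controls, and Cela1 is the gene of the 3 with bars whose groups overlap.

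The lipase genes of the set were far less abundant than Clps. Pnliprp1 (Entrez 18946, chr19:58728887-58744169), a relative of pancreatic lipase, was at 42, 59 and 54 FPKM in controls 1 to 3 and at 0, 4, 1, 8 and 1 in cancers 1 to 5. All cancers lay below all controls, with a mean log2 difference of -4.21 (SE 0.58). Pnlip itself (Entrez 69060, chr19:58670365-58681788), the main fat-splitting enzyme of pancreatic juice, was at 1, 2 and 1 in the controls and listed at 0 in all 5 cancers. Cel (Entrez 12613, chr2:28555820-28563362), the bile-salt-activated carboxyl ester lipase, was at 9, 12 and 3 in the controls and at 0, 1, 0, 3 and 1 in the cancers. The groups met at 3 FPKM in control 3 and cancer 4, and the log2 difference was -2.21 (SE 0.64). Adding Pnliprp2, a galactolipase of the same family that is not one of the 10, to Pnlip and Pnliprp1 gave a summed lipase level of 227, 195 and 183 in the controls. Clps exceeded this sum by 330, 760 and 640 times in controls 1 to 3 and by 145, 117, 239 and 83.6 times in cancers 2 to 5. In cancer 1 the 3 lipases were listed at 0.

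Of the endoproteases, which cut within protein chains, Try10 and Cela1 differed in their course. Try10 (Entrez 436522, chr6:41354105-41357944), a trypsinogen, was at 58, 120 and 106 FPKM in controls 1 to 3 and at 0, 4, 0, 2 and 0 in cancers 1 to 5. The groups were far apart, with a mean log2 difference of -5.73 (SE 0.59). Of its 50-base stretches, 40.8% also occur in transcripts of other trypsinogen genes, Gm5409 foremost, so the split of reads among these copies is uncertain. Cela1 (Entrez 109901, chr15:100674422-100687920), an elastase that shares no 50-base stretch with another gene, was at 59, 53 and 84 in the controls and at 2, 287, 13, 96 and 51 in the cancers. Cancers 2 and 4 lay above every control and cancers 1, 3 and 5 below. Its mean log2 difference was -0.85 (SE 1.16), which became 0.047 after each library was rescaled to the same sum (TPM) and 0.046 without cancer 1. Cela2a (Entrez 13706, chr4:141793612-141826003, a listed locus that also spans Casp9), another elastase, was at 1, 1 and 3 in the controls and listed at 0 in the cancers.

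The carboxypeptidases, which trim amino acids from the ends of peptides, were listed at 0 or 1 FPKM. Cpa1 (Entrez 109697, chr6:30639221-30645361) was listed at 0 in all 8 samples. Cpb1 (Entrez 76703, chr3:20249484-20275729) was listed at 1, 1 and 0 in the controls and at 0 in the cancers. Both are among the most abundant products of acinar cells, and neither passed the filter, which asked for 3 or more samples with FPKM of 1 or higher.

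Across the set, 8 of 10 genes passed that filter, and 6 had every cancer below every control (Clps, Pla2g1b, Try10, Cela2a, Pnlip and Pnliprp1). Among all 14357 genes tested, 19.8% had every cancer below every control, and since the genes were chosen on this contrast nothing is read from the comparison. No gene of the set had every cancer above every control, where all genes gave 14.4%. At the edge of the set's levels, 5 genes had at least 40 FPKM in every control and 4 did not exceed 3 FPKM in any sample. The median log2 difference was -1.77 over all 10 genes and -4.97 over the 6 listed above 0 in both groups, beside -0.04 over all genes tested. With a pseudocount of 0.1 in place of 1 the median over the 10 genes was -3.86.

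**Figure D2:**
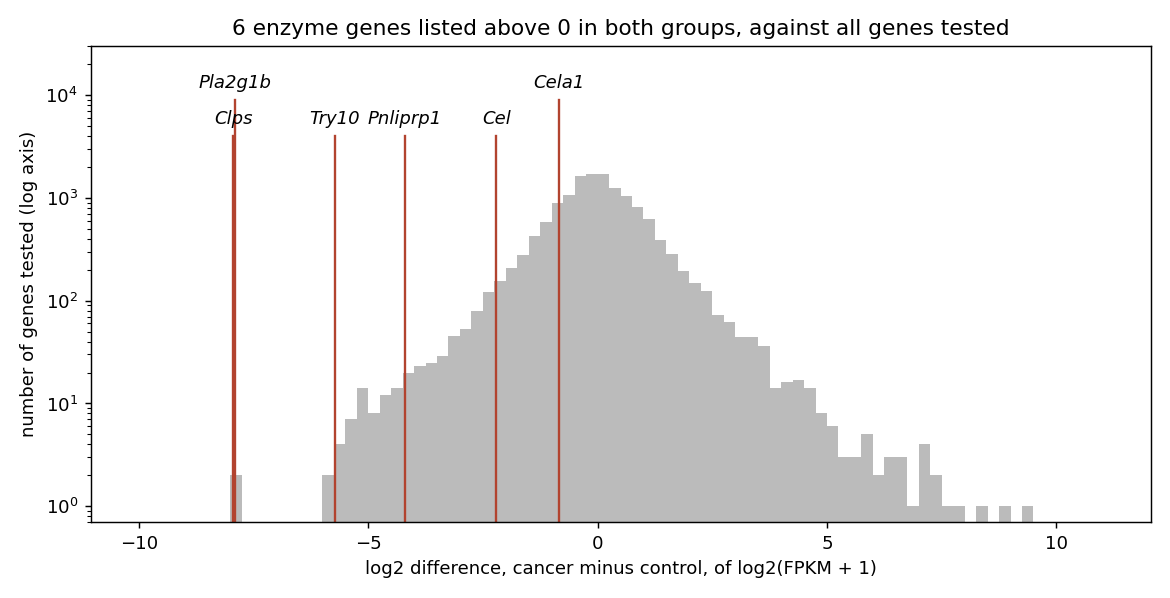
Histogram of the log2 difference, cancer minus control, of log2(FPKM + 1) for the 14357 genes tested, with a log axis for the number of genes. Red lines mark the 6 enzyme genes listed above 0 in both groups, with Clps (-7.94) and Pla2g1b (-7.91) at the left end and Cela1 (-0.85) within the bulk of the genes.

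Clps and Pla2g1b carried nearly all of the set's RNA. Together the 10 genes took 11.3%, 24.0% and 18.2% of the summed FPKM in controls 1 to 3 and 0.00173%, 0.840%, 0.0725%, 2.25% and 0.253% in cancers 1 to 5. Clps alone took 7.84%, 16.7% and 11.8% in the controls and at most 1.62%, in cancer 4. Clps and Pla2g1b made up 99.8% to 99.9% of the set's FPKM in the controls and 71.4% to 99.1% in the cancers. The other 8 genes held 0.0179% to 0.0280% of the summed FPKM in the controls and 0.000496% to 0.0516% in the cancers, so these ranges overlapped. That overlap rests on Cela1, which supplied 287 of the 296 FPKM of the other 8 genes in cancer 2.

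**Figure D3:**
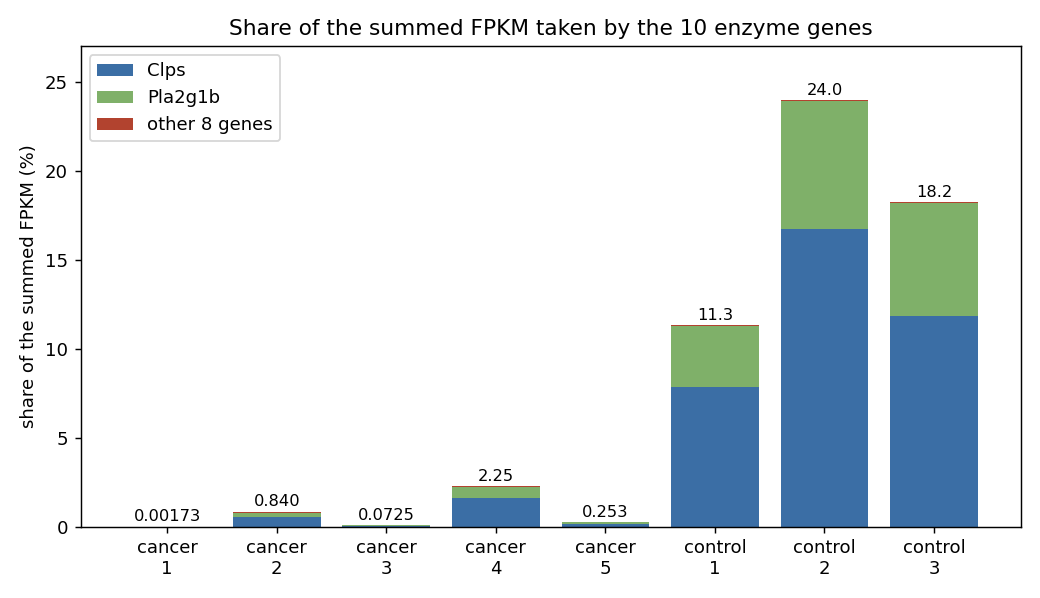
Share of the summed FPKM, in percent, taken in each sample by Clps, Pla2g1b and the other 8 genes, stacked, with the total above each bar. The controls reach 11.3%, 24.0% and 18.2%, whereas no cancer exceeds 2.25%.

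The cancers differed widely among themselves, in an order close to that of gastric epithelial genes. Ordered by Clps, the cancers ran 1, 3, 5, 2 and 4, with 0.00264%, 0.206%, 0.590%, 2.68% and 8.01% of the control mean. Krt19, a keratin of simple epithelium, stood at 0.482%, 7.22%, 17.6%, 68.1% and 37.0% in the same order, and the gastric surface cell gene Gkn2 at 0.268%, 2.37%, 6.09%, 29.2% and 28.4%. The lowest of these values fell in cancer 1 and the highest in cancers 2 and 4 for each gene. The summed level of 6 pit and neck cell genes was 691 to 72677 in the cancers and 146212 to 214340 in the controls. The 4 parietal cell genes summed to 0 to 2199 and 4071 to 7486, with Atp4a and Atp4b listed at 0 in cancer 1. The 6 squamous genes summed to 2 to 1893 and 2694 to 4516, and the 6 endocrine genes to 10116 to 16905 and 2531 to 3882. The part of tissue makeup in the enzyme levels was not tested. As a description on the values that chose the genes, Clps per FPKM of Gkn2 was 1.11, 2.98 and 1.55 in the controls and 0.0174 to 0.498 in the cancers. Per FPKM of Atp4b, the proton pump subunit of parietal cells, it was 32.2 to 37.9 in the controls and 2.21 to 16.3 in cancers 2 to 5. Per FPKM of Gif, a product of mouse chief cells, Clps was 29.0 to 34.7 in the controls and 3.76 to 20.9 in cancers 2 to 5.

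**Figure D4:**
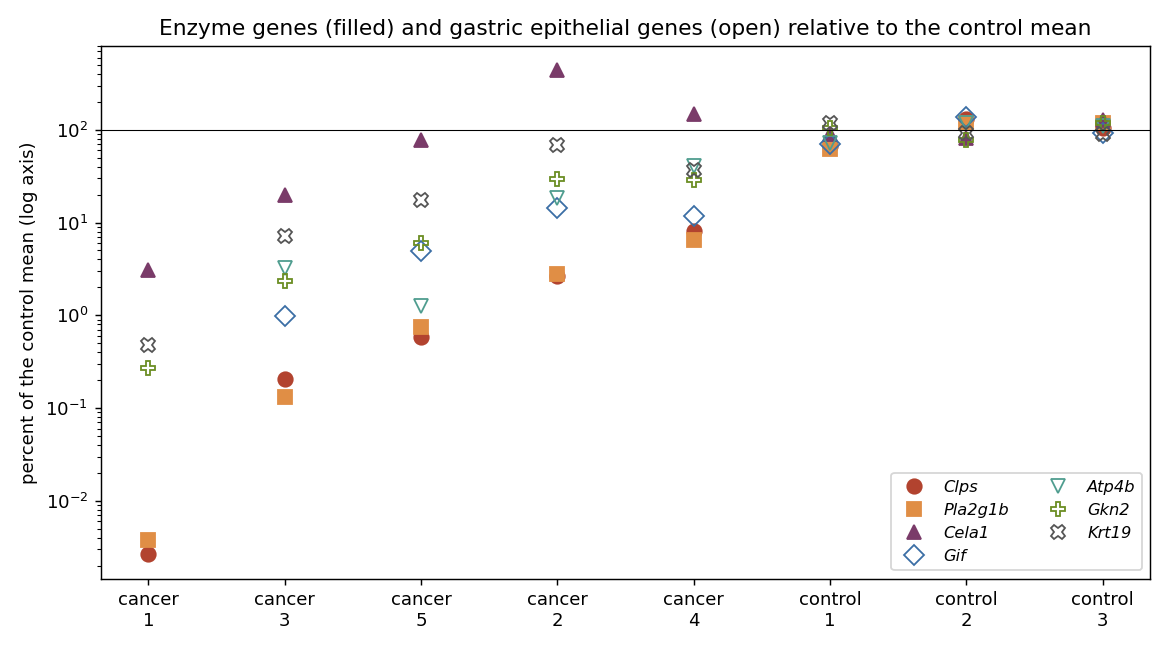
Level of 3 enzyme genes (filled symbols) and 4 gastric epithelial genes (open symbols) in each sample as a percent of the control mean on a log axis, with the cancers ordered by Clps and values listed at 0 not drawn. Of the symbols drawn, Clps and Pla2g1b lie lowest in every cancer, from 0.00264% to 8.01%, whereas Cela1 lies highest, from 3.06% to 439%.

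Most markers of pancreatic acinar cells were at or near 0 in the control SCJ, with Rnase1 and Sycn as exceptions. Of 10 acinar markers, 5 did not exceed 1 FPKM in any sample (Ctrb1, Prss2, Amy2a5, Cela3b and Rbpjl), and 3 of the 10 were listed at 0 throughout. The 10 summed to 48 to 58 FPKM in the controls and 15 to 57 in the cancers, beside 74893 or more for Clps in the controls. The sum in the controls came mainly from Rnase1, at 19, 25 and 25 in controls 1 to 3, and Sycn, at 27, 32 and 29, and for both genes every cancer lay below every control. Ins1 was listed at 0 in all samples and Ins2 did not exceed 1. The islet list nevertheless summed to 36 to 17715 in the cancers and 3 to 49 in the controls, owing to Gcg, the glucagon precursor that gut endocrine cells also express. The 6 salivary gland markers summed to 4 to 83 in the cancers and 8 to 12 in the controls, with 4 listed at 0 throughout, and the 6 intestinal markers to 3 to 39 and 32 to 49. The 5 hepatocyte markers reached 455 in cancer 5 and the 3 adipocyte markers 226 in cancer 1, against 1 and 0 in the controls. The 5 duct markers, Krt19 among them, summed to 20 to 1871 in the cancers and 2423 to 3192 in the controls. The 4 smooth muscle genes summed to 11 to 935 and 170 to 314, and the 4 leukocyte genes to 4 to 50 and 3 to 4.

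Most other genes of the pancreatic secretory programme were listed at or near 0 in both tissues. Of 32 found in the table, 14 were listed at 0 in all samples and 20 did not exceed 3 FPKM, among them the amylases Amy2a2 to Amy2a5 and Amy2b and the trypsinogen Prss2. Among the 13 that passed the filter, limma called 6 lower and 1 higher in the cancers at an adjusted p under 0.05. Over all genes tested, limma called 34.5%, with 18.3% lower and 16.2% higher. The median log2 difference of the 13 was -1.39, or -2.18 without the 2 listed at 0 throughout a group. With a pseudocount of 0.1, and likewise without control 1, 2 or 3, the calls numbered 4 rather than 7.

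The secretory genes that fell included parts of the export machinery as well as enzymes. Pdia2, the protein disulphide isomerase of the pancreas, was at 518, 937 and 1008 FPKM in controls 1 to 3 and 0, 55, 11, 79 and 19 in cancers 1 to 5 (log2 fold change -5.62, SE 1.33, adjusted p = 0.0167 from limma). Tmed6, a cargo receptor of the secretory pathway, was at 243, 349 and 278 and at 55, 122, 100, 48 and 29 (log2 fold change -2.18, SE 0.45, adjusted p = 0.0107 from limma). For both genes the highest cancer lay below the lowest control. Pnliprp2 was at 184, 134 and 128 in the controls and at 0, 17, 1, 30 and 7 in the cancers (log2 fold change -4.58, SE 1.10, adjusted p = 0.0179 from limma). The adjusted p from limma rose as high as 0.0632 for Pdia2 and 0.0702 for Pnliprp2 over the alternatives, and both calls were lost without any 1 of the 3 controls. Both were also lost with a pseudocount of 0.1 (adjusted p = 0.0506 and 0.0504 from limma). Tmed6 kept its call in 15 of 15 alternatives. Gm5409, which shares 31.3% of its 50-base stretches, mostly with Try10, was at 35, 62 and 63 and at 0, 2, 0, 1 and 0 (log2 fold change -5.20, SE 0.44, adjusted p = 0.00073 from limma), so its call and the level of Try10 are not separate evidence. Among genes chosen after their values were seen, Rnase1, the pancreatic ribonuclease, was at 19 to 25 in the controls and 0 to 12 in the cancers (log2 fold change -2.85, SE 0.74, adjusted p = 0.0230 from limma). The Rnase1 call was lost without cancer 3 (adjusted p = 0.0569 from limma), without any 1 control and with a pseudocount of 0.1 (adjusted p = 0.0677 from limma). Gm10334, a further trypsinogen copy chosen in the same way, was at 1 or 2 in the controls and listed at 0 in the cancers.

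A pair of the most abundant secretory genes did not pass the test in either direction. Reg1, a secreted lectin of acinar cells, was at 2, 2 and 1 FPKM in controls 1 to 3 and 0, 83, 31, 223 and 33 in cancers 1 to 5 (log2 fold change 3.47, SE 1.55, adjusted p = 0.115 from limma). It was above the controls in 4 of 5 cancers, and without cancer 1 its adjusted p from limma was 0.0072. Klk1, tissue kallikrein, was at 10, 14 and 15 and at 1, 44, 2, 47 and 72 (adjusted p = 0.92 from limma), with cancers on either side of the controls.

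The hormone genes Cck and Sct rose in the cancers, whereas 3 of the 5 receptor genes for acinar secretion in the list, Cckar, Sctr and Chrm3, fell. Cck, the cholecystokinin precursor, was at 4, 24 and 9 FPKM in controls 1 to 3 and 32719, 7438, 33979, 1507 and 1462 in cancers 1 to 5 (log2 fold change 9.37, SE 1.26, adjusted p = 0.0027 from limma). Its receptor gene Cckar was at 24, 47 and 36 in the controls and at 0, 2, 0, 9 and 2 in the cancers (log2 fold change -3.85, SE 0.75, adjusted p = 0.0086 from limma). Cck was highest and Cckar listed at 0 in cancers 1 and 3, the cancers with the least Clps. Sct, the secretin precursor, was at 0, 1 and 0 in the controls and 334, 496, 739, 217 and 77 in the cancers (log2 fold change 7.85, SE 0.69, adjusted p = 0.00079 from limma). The secretin receptor gene Sctr, named after its values were seen, was at 25, 16 and 31 in the controls and 0, 6, 0, 6 and 4 in the cancers (log2 fold change -3.01, SE 0.79, adjusted p = 0.0239 from limma). The calls for Cck, Cckar and Sct held in 15 of 15 alternatives. That for Sctr was lost in 5 of 15, among them without control 1, 2 or 3, with adjusted p from limma of 0.0826, 0.0587 and 0.0877. Chrm3, the muscarinic receptor gene through which acetylcholine acts on acinar cells, was at 4, 5 and 4 in the controls and 0, 2, 1, 1 and 1 in the cancers (log2 fold change -1.49, SE 0.32, adjusted p = 0.0125 from limma). Its call was lost in 4 of 14 alternatives, without control 2 among them (adjusted p = 0.0513 from limma). Cckbr, at 4, 7 and 9 in the controls and 3, 1, 0, 5 and 1 in the cancers, and Chrm1, at 0 or 1 throughout, did not pass (adjusted p = 0.0650 and 0.156 from limma). Chrm3, Cckbr and Chrm1 were named after their values were seen. Within the endocrine markers, Chga was at 3247 to 12837 in the cancers and 108 to 152 in the controls, and Chgb at 1725 to 7002 and 7 to 21. Ghrl lay the other way, at 0 to 1330 and 2160 to 3471, and Sst overlapped, at 15 to 963 and 186 to 263. The part of endocrine cell content in the Cck and Sct levels was not tested.

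**Figure D5:**
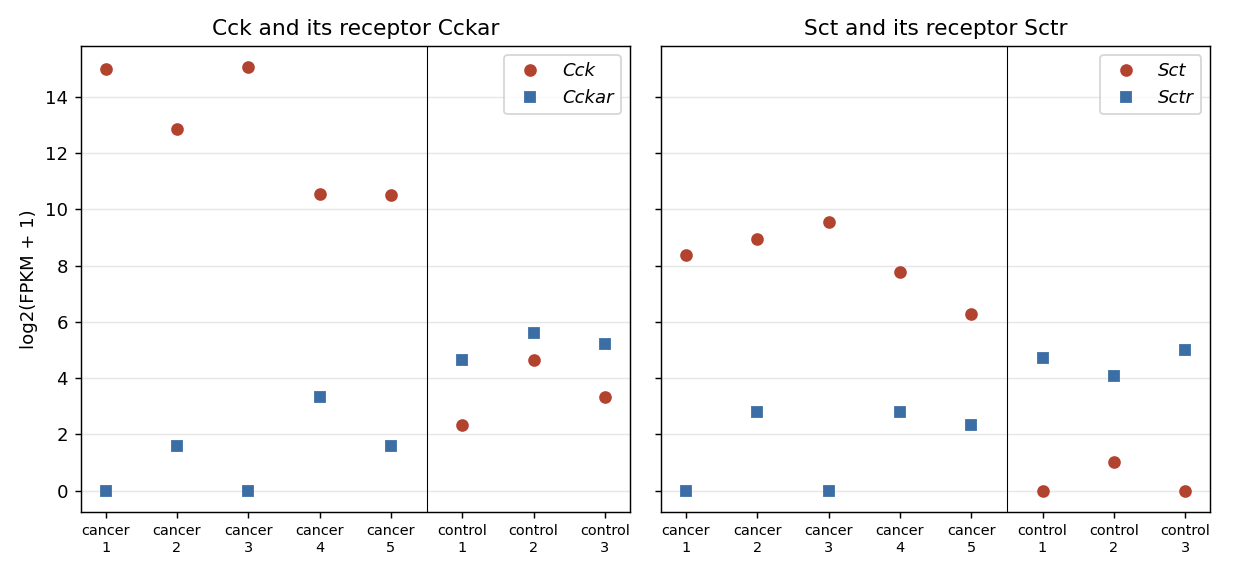
Levels of Cck and Cckar (left) and of Sct and Sctr (right) in each sample, as log2(FPKM + 1), with hormone genes as red circles and receptor genes as blue squares. Cck is at 1462 FPKM or more in the 5 cancers and at most 24 in the controls, whereas Cckar is at most 9 in the cancers and at least 24 in the controls.

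The transcription factors of the acinar programme fell into low and abundant genes in the control SCJ. Rbpjl and Nr5a2 were listed at 0 in all samples, and Ptf1a was at 2, 1 and 1 FPKM in controls 1 to 3 and at 0, 0, 0, 1 and 0 in cancers 1 to 5. Gata4 was at 120, 109 and 111 in the controls and at 20, 47, 22, 33 and 21 in the cancers (log2 fold change -2.03, SE 0.29, adjusted p = 0.0029 from limma). Gata6 was at 50, 47 and 60 and at 9, 21, 15, 24 and 17 (log2 fold change -1.61, SE 0.29, adjusted p = 0.0065 from limma). Neither GATA gene overlapped between the groups. Xbp1, a driver of the secretory apparatus, was at 174, 178 and 229 in the controls and 202, 153, 275, 196 and 317 in the cancers (log2 fold change 0.20, adjusted p = 0.56 from limma), or 1.18 higher on the log2 scale with TPM (limma, adjusted p = 0.0158). That rescaling moved the median over all genes tested to 0.81. Bhlha15, which encodes the secretory cell factor MIST1 and was named after its values were seen, overlapped between the groups at 8, 17 and 26 and 9, 3, 4, 2 and 8 (adjusted p = 0.0465 from limma). Its call was lost in 10 of 15 alternatives, with an adjusted p from limma as high as 0.316. The calls for Gata4 and Gata6 held in 14 of 15. Over all genes tested, limma called 18.3% lower and 16.2% higher. In all, 16 regulators were in the table and 14 were tested, with 7 lower and 2 higher in the cancers and a median log2 difference of -1.24. With TPM the regulator calls were 4 lower and 3 higher, beside 528 lower and 7176 higher over all genes. With the replicate block the regulators gave 2 lower and 2 higher, beside 575 lower and 1005 higher over all genes. Without control 2 the regulator calls numbered 5 rather than 9, and those over all genes 2700 rather than 4948.

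The gastric chief cell genes, from the stomach's own zymogenic cell, gave no call. Gif was at 2581, 4982 and 3374 FPKM in controls 1 to 3 and 0, 520, 36, 434 and 178 in cancers 1 to 5 (log2 fold change -5.68, SE 1.97, adjusted p = 0.0563 from limma). Its groups did not overlap, and cancers 1 and 3 were lowest as for Clps. Of the 5 chief cell genes, limma called 0, with 2 at an unadjusted p under 0.05, beside 34.5% called over all genes tested. The count was 1 without cancer 1, where the adjusted p of Gif from limma was 0.0209, 1 without cancer 2 (0.0492 for Gif) and 2 without cancer 4 (Pga5 lower and Lipf higher). Pgc and Chia, the pepsinogen C and acidic chitinase genes, were listed at 0 in 2 and 1 of the controls beside levels of 15020 or more in the others, so their fold changes are not interpretable. Lipf, gastric lipase, was the other gene with an unadjusted p under 0.05 and lay the opposite way, at 1, 0 and 0 in the controls and 6, 4, 2, 1 and 1 in the cancers (log2 fold change 1.41, SE 0.49, adjusted p = 0.0560 from limma). It was called higher with a pseudocount of 0.1, with TPM and with the replicate block (adjusted p = 0.0362, 0.0144 and 0.0401 from limma). Pga5, another pepsinogen, was at 63, 47 and 62 in the controls and 0, 6, 7, 111 and 1 in the cancers, with cancer 4 above every control. Without cancer 4 limma gave a log2 fold change of -4.15 and an adjusted p of 0.0103.

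Genes that check protease activity are needed wherever trypsinogens are made. Of 13 inhibitors and activators, 6 passed the filter and limma called 3 lower and 0 higher, or 2 lower and 1 higher with TPM. All genes tested gave 18.3% lower and 16.2% higher, or 528 lower and 7176 higher of 14357 with TPM. The count of inhibitors and activators was 1, 0 and 0 without control 1, 2 and 3. Over all genes, calls fell from 4948 to 2548, 2700 and 2874 without these controls. Spink3, the pancreatic trypsin inhibitor, did not exceed 2 FPKM, and Tmprss15, the enteropeptidase that activates trypsinogen, was listed at 0 throughout. Slpi, an inhibitor of elastase, was at 133, 195 and 180 in controls 1 to 3 and 12, 13, 40, 28 and 77 in cancers 1 to 5 (log2 fold change -2.59, SE 0.59, adjusted p = 0.0145 from limma). Its groups did not overlap, and its call was lost without control 2 or 3 (adjusted p = 0.0564 and 0.0547 from limma). Spink5, a squamous epithelial inhibitor, was at 65 to 147 in the controls and 0 to 17 in the cancers (log2 fold change -4.35, SE 1.12, adjusted p = 0.0223 from limma), alongside the squamous genes. Without control 1, 2 or 3 the adjusted p of Spink5 from limma was 0.0731, 0.0829 and 0.0619, and with a pseudocount of 0.1 it was 0.0649. F2rl1, a receptor that trypsin activates, was at 24 to 29 and 9 to 21 (log2 fold change -0.95, SE 0.25, adjusted p = 0.0222 from limma), with a log2 fold change of -0.029 with TPM and a call lost without cancer 3 or any 1 control. Spink4, a gut relative of Spink3, was at 63, 129 and 150 in the controls and 260, 870, 2675, 453 and 193 in the cancers, without overlap but with an adjusted p of 0.0603 from limma, and it passed without cancer 5 (0.0451), with TPM (0.00824), with quantile normalization (0.0283) and with a mean FPKM of at least 5 (0.0468).

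Relatives of the enzymes that are made outside the pancreas gave calls in both directions. Among all genes tested, limma called 18.3% lower and 16.2% higher. Of 50 related lipases, phospholipases, carboxypeptidases and serine proteases, 36 were tested, with 15 lower and 4 higher in the cancers and a median log2 difference of -1.09. With TPM the calls were 8 lower and 8 higher, with a median of -0.36, beside a median of 0.81 and 528 lower calls of 7704 over all genes on that scale. Without control 2 or 3 the calls numbered 11 and 12. The largest level belonged to Cpe, the carboxypeptidase that trims prohormones in endocrine cells, at 57, 66 and 57 FPKM in controls 1 to 3 and 4082, 1688, 4895, 2039 and 6183 in cancers 1 to 5. Its log2 fold change was 5.79 (SE 0.46, adjusted p = 0.00060 from limma), and the call held in 15 of 15 alternatives. Among the 10 metallocarboxypeptidases tested, 4 were lower (2 with TPM), and Cpn1 was higher along with Cpe. Among lipases related to Pnlip, 2 were lower, Pnliprp2 and the endothelial lipase Lipg (log2 fold change -2.32, SE 0.43, adjusted p = 0.0070 from limma), and 1 was higher of 5 tested. The higher lipase was Pla1a, listed at 0 in the controls and at 2 to 7 in the cancers. Of 6 secreted phospholipases A2, 2 were lower, among them Pla2g12b (log2 fold change -3.08, SE 0.83, adjusted p = 0.0260 from limma). Of 15 trypsin-fold serine proteases, 7 were lower and 0 higher, or 3 lower and 2 higher with TPM. Of the 7, Tpsb2, Tpsab1, Mcpt4 and Cma1, named after their values were seen, are proteases of mast cells. They did not exceed 2 FPKM in any cancer and were at 4 to 21 in the controls. The mast cell list, with Kit at 16 to 51 in the cancers and 7 to 13 in the controls, summed to 17 to 52 and 22 to 29, and the part of mast cells in these calls was not tested. The other 3 included the membrane-bound Tmprss2 (log2 fold change -1.85, SE 0.49, adjusted p = 0.0248 from limma) and Prss8 (log2 fold change -2.40, SE 0.73, adjusted p = 0.0394 from limma). Tmprss2 and Prss8 lost their calls with TPM (adjusted p = 0.0872 and 0.0712 from limma). The calls for Pla2g12b and Tmprss2 were lost without cancer 3 and without any 1 control, and that for Prss8 also without cancer 5, with adjusted p from limma of at most 0.108, 0.0974 and 0.117 over all alternatives. The Pla2g12b call was lost with a pseudocount of 0.1 as well (adjusted p = 0.0792 from limma).

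The genes whose profile over the 8 samples was most like the mean centred profile of the 10 enzymes were sought among 9133 genes with a mean FPKM of at least 5. The closest, by root-mean-square difference on the log2 scale, were Eps8l1 (0.282), Mecom (0.355), Clic3 (0.357), Rnase1 (0.363) and Sytl4 (0.364). Eps8l1 was at 31, 37 and 35 FPKM in controls 1 to 3 and at 0, 10, 2, 8 and 6 in cancers 1 to 5. Sytl4 was at 19, 19 and 16 in the controls and at 0, 3, 1, 5 and 2 in the cancers. The enzymes themselves lay farther from their mean profile than these 5 genes, from 0.577 for Pnliprp1 to 2.98 for Pla2g1b and 3.12 for Clps, so the profile stands for none of them closely. The points share libraries and the likeness is a description only.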

How the data were processed

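RNA was measured in 5 SCJ cancers and 3 control SCJ. Per the labels, directional polyA+ libraries were made with a NEBNext kit. The submitters' processing notes name cutadapt 1.8, TopHat2 2.0.13 and Cuffnorm 2.2.1, and the authors quantified mm10 genes with cuffquant. The deposited values are FPKM that the authors rounded to whole numbers, so they were treated as a score and not as counts; the scaling option of Cuffnorm is not given in the sources used here, and read depth is unknown. Loci are from the deposited table, with starts counted from 1.

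A gene was tested if 3 or more samples had an FPKM of 1 or higher, which held for 14357 of 23361. In R 4.3.3, limma 3.58.1 (a linear fit by lmFit, then eBayes with its trend option) was run on log2(FPKM + 1), with all 8 samples, no covariate, Benjamini-Hochberg adjustment over all genes tested and a threshold of 0.05. Fold changes on this scale understate those of low genes. The 10 enzyme genes were summarised without a test. The code of the fit was also run on simulated data, from which no result is given here. The members and lists were chosen with earlier results of these data known. Of 178 list genes, 176 were found. Named were the 10 enzymes, up to 5 genes of highest mean FPKM per list, up to 3 with the largest change past the threshold among secretory genes and regulators, and the 5 genes of most similar profile; the rule also took the first 2 markers of each marker list, of which those beside a result are printed and the others stand in their list's sum; other genes were named after their values were seen. Counts over the lists include 1 gene whose own result is not reported here. Shared 50-base stretches were counted in GENCODE vM21 transcripts. Promoters came from RefSeq (GRCm38.p6). Alternatives were a pseudocount of 0.1, no filter, a mean FPKM of at least 5, TPM, quantile normalization, eBayes without trend, a replicate block and leaving out each sample.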

Additional observations from a re-analysis of the deposited data

Results flagged for a closer look

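Among the 5 cancers, 90 items were examined, which were genes and the set's share of the summed FPKM. Of these, 13 genes had a sample far from the others by Dixon's ratio of gap to range, with a critical value of 0.71 at 5 samples. For values without ties, chance gives about 1 in 20. In 10 of the 13 the other 4 cancers were all listed at 0, which fixes the ratio at 1, so the number that stood apart cannot be set against chance. None was one of the 10 enzyme genes. In cancer 2, Pla2g2a (194 FPKM), Alpi (8), Tpsb2 (2), Cma1 (2), Ins2 (1) and Cpa3 (1) were the only cancer values above 0, each with a ratio of 1. The same ratio of 1 held for Ctrb1 (1 FPKM) and Ptf1a (1) in cancer 4, Apoh (21) in cancer 5 and Plin1 (13) in cancer 1. Cancer 1 also stood apart for Adipoq (49 FPKM, ratio 0.823) and Cpm (11, ratio 0.778), and cancer 5 for St14 (110, ratio 0.716).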

How the results depend on the processing

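The direction of each enzyme gene's difference changed for Cela1 alone, as given above. The median over the 10 enzymes moved to -3.86 with a pseudocount of 0.1, and 6 to 8 of them had every cancer below every control when 1 sample was left out. The 4948 calls over all genes became 7704 with TPM (93.1% higher, against 47.0%) and 2548 to 5232 with 1 sample left out, with 2548, 2700 and 2874 without control 1, 2 and 3. A mean FPKM of at least 5 lowered the share higher to 35.4%. Replicate numbers did not pair the samples (correlations of deviations -0.021, -0.19 and -0.10 for numbers 1 to 3), and with the replicate block 1580 genes were called. The block gave 4 regulators, 9 related genes and 1 chief cell gene. A pseudocount of 0.1 gave 4 secretory genes. A mean FPKM of at least 5 gave 12 related genes. That filter, the pseudocount of 0.1 and TPM each gave 1 chief cell gene. With 1 sample left out, calls numbered 4 to 9 secretory genes, 5 to 9 regulators, 0 to 2 chief cell genes, 0 to 4 inhibitors and activators and 11 to 20 related genes. Apart from the smaller number of genes or samples that a filter or omission leaves, the cause was not tested. Rounding limits every level near 1 FPKM.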
